A study of Rattus norvegicus with 4 samples.

Results

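The genes described here are those of the rat major histocompatibility complex (MHC), which carry RT1 symbols, together with genes that load peptides onto MHC proteins. Members were picked by a rule on symbols, which was set with earlier results of these data known. The rule takes every RT1 gene that the array annotation ties to a probe set of its own. It also takes Tap1, Tap2, Tapbp, Tapbpl, B2m, Erap1, Nlrc5, Ciita and Cd74. In all, 43 of the 14497 genes measured met the rule, namely 26 class I RT1 genes, 9 class II RT1 genes and 8 of the 9 other genes. Nlrc5 has no named probe set and is not analysed here. A further 6 RT1 symbols, among them the classical class I genes RT1-A1, RT1-A2 and RT1-A3, occur only on probe sets that name several genes, and these are given apart.

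The samples were primary cultures of hippocampal neurons from rat embryos, transduced with an shRNA against Gld2 (2 cultures) or with a scrambled shRNA (2 cultures). No source used here gives the strain, the age, the time after transduction or the shRNA sequences. Gld2 (gene symbol Tent2) is a cytoplasmic poly(A) polymerase. RNA was eluted by heat from poly(U) Sepharose before it was put on whole-transcript arrays, so the amount of a transcript and its recovery through its tail cannot be told apart. Values are log2 RMA values as deposited, and a positive log2 difference means a higher value after Gld2 shRNA. Calls use an adjusted p under 0.05 from limma with Benjamini-Hochberg adjustment over all 14497 genes.

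MHC class I proteins are heavy chains that pair with β2-microglobulin and show peptides from the cytosol at the cell surface. The peptides are cut by the proteasome, pumped into the endoplasmic reticulum by the TAP transporter, trimmed by Erap1 and loaded with the help of tapasin. Class II proteins are pairs of an alpha and a beta chain that show peptides from endosomes, with the invariant chain Cd74 as their escort, and are made mainly by professional antigen-presenting cells. Class I genes are inducible by interferon in most cell types, neurons included, whereas class II genes need the transactivator Ciita.

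The targeted transcript served as the check of the labels. Tent2 stood at 9.50 and 9.35 after Gld2 shRNA, against 10.73 and 10.67 after scrambled shRNA, and it was lower in Gld2 shRNA cultures (log2 difference -1.28, adjusted p = 0.000754, limma). The median of the 4 arrays over all probe sets lay between 8.41 and 8.48. Neuron markers had values from 10.96 to 13.34 over the 4 arrays. The astrocyte marker Gfap stood at 13.30 and 13.28 after Gld2 shRNA, against 13.19 and 13.18 after scrambled shRNA, so the cultures were not free of astrocyte transcripts. The median level of the astrocyte markers was 12.75 and 12.71 after Gld2 shRNA, against 12.66 and 12.65 after scrambled shRNA. That of the neuron markers was 12.58 and 12.62 after Gld2 shRNA, against 12.66 in both cultures with scrambled shRNA. No detection calls were among the sources used here, so it is not known which low values lie above background. Nothing in the labels says that replicate cultures were prepared separately, so p-values measure only the spread between these samples, and that spread may be technical.

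Promoter stretches of 7 members are shown first, because they carry the core of the interferon-stimulated response element, GAAA, any 2 bases and GAAA again, on either strand. The sequences are from RefSeq, build GRCr8, and are written 5′ to 3′ on the strand of the gene, all upstream of the annotated start, with the motif in capitals. On the opposite strand the motif reads TTTC, any 2 bases and TTTC.
RT1-S3: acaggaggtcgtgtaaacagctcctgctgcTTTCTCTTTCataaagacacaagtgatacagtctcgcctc
RT1-S2: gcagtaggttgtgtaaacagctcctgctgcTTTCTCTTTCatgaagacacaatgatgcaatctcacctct
RT1-N3: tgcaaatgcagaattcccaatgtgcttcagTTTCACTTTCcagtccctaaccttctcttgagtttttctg
Tap1: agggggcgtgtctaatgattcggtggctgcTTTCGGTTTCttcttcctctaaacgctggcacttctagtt
Tap2: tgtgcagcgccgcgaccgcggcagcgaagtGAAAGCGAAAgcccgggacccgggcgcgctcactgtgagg
Tapbp: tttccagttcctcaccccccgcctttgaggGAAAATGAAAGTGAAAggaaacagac
B2m: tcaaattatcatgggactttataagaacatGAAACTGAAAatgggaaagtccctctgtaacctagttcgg

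These stretches lie at chr20:2675386-2675455 (RT1-S3, plus strand), chr20:2654867-2654936 (RT1-S2, plus strand) and chr20:2666252-2666321 (RT1-N3, plus strand). Those of the loading genes lie at chr20:4668625-4668694 (Tap1, minus strand), chr20:4652298-4652367 (Tap2, minus strand), chr20:4967878-4967933 (Tapbp, minus strand) and chr3:129549150-129549219 (B2m, plus strand). The motif begins 112 bases before the start in RT1-S3 and 157 bases before it in RT1-S2. In Tapbp there are 2 overlapping copies, the first of which begins 26 bases before the start.

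Many genes of class I presentation rose in the Gld2 shRNA cultures, and no class II gene passed the test. Of 26 class I genes, 11 rose, 0 fell and 15 did not pass, beside 1.69% of all genes called higher, 2.41% called lower and 4.10% called either way. Of 9 class II genes, 0 rose and 0 fell by limma, with 3 at an unadjusted p under 0.05, beside 3687 of all 14497 genes. Of the 8 other members, 5 rose and 3 did not pass. The median log2 difference was 0.37 for class I, 0.13 for class II and 0.41 for the other members, beside -0.02 over all genes. Both Gld2 shRNA cultures lay above both scrambled shRNA cultures for 22 of 26 class I genes, 4 of 9 class II genes and 7 of 8 other members, beside 24.0% of all genes. The difference was above 0 for 24 class I genes, 8 class II genes and 8 other members, beside 46.2% of all genes. By the descriptive rule of an unadjusted p under 0.05 with at least 1.5-fold, 8 class I genes, 0 class II genes and 3 other members were higher and 0 members were lower, beside 0.938% and 0.517% of all genes. In such bulk cultures, more cells of a type and more RNA per cell cannot be told apart.

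**Figure D1:**
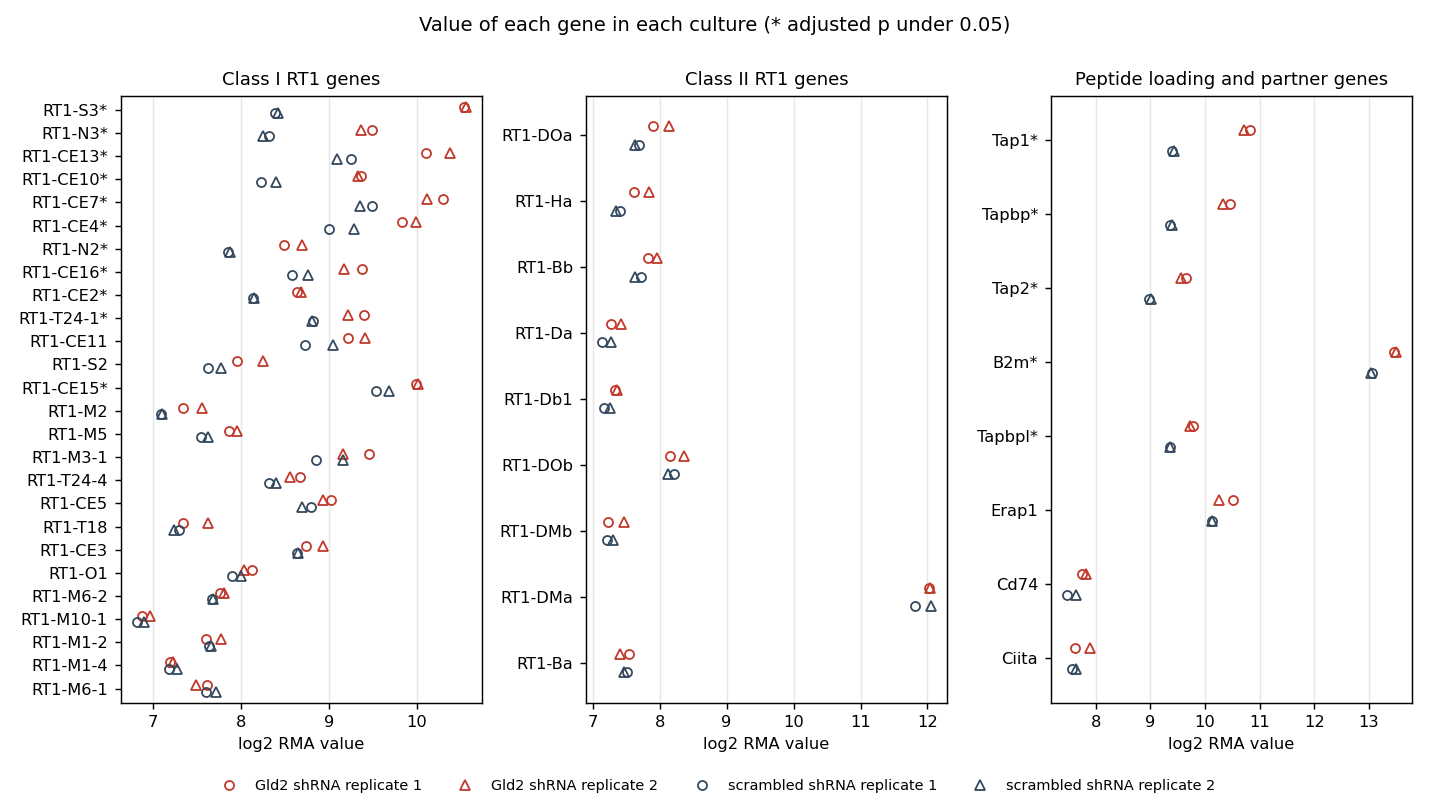
Log2 RMA value (x axis, own range in each panel) of every member in each of the 4 cultures, Gld2 shRNA in red above scrambled shRNA in dark blue, with circles for replicate 1 and triangles for replicate 2. The gap between the colours is widest for RT1-S3 at a log2 difference of 2.14, while the class II genes lie close together, with differences from -0.02 to 0.35.

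Among the peptide transporter genes, Tap1 changed most. It encodes one chain of the TAP transporter and stood at 10.82 and 10.72 after Gld2 shRNA, against 9.39 and 9.43 after scrambled shRNA. The groups were apart by far more than the spread within either, and Tap1 was 2.56-fold higher (95% confidence interval 2.28 to 2.87, adjusted p = 0.000383, limma). Tap2, the other chain, stood at 9.65 and 9.56 after Gld2 shRNA, against 8.98 and 9.0 after scrambled shRNA. It rose 1.53-fold (95% confidence interval 1.37 to 1.71, adjusted p = 0.00886, limma), less than its partner on the log2 scale, where the intervals of the pair (1.19 to 1.52 for Tap1 and 0.46 to 0.78 for Tap2) did not overlap.

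The loading chaperone genes rose as well. Tapbp, which encodes tapasin, stood at 10.46 and 10.34 after Gld2 shRNA, against 9.35 and 9.39 after scrambled shRNA, a 2.04-fold rise (95% confidence interval 1.81 to 2.30, adjusted p = 0.00158, limma). Tapbpl encodes the tapasin-related protein TAPBPR, a peptide editor. It stood at 9.78 and 9.73 after Gld2 shRNA, against 9.36 and 9.35 after scrambled shRNA, 1.32-fold higher (95% confidence interval 1.19 to 1.46, adjusted p = 0.0307, limma). Values within each group were nearly equal for Tapbpl, and the groups did not overlap.

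B2m, the light chain shared by class I proteins, stood at 13.46 and 13.49 after Gld2 shRNA, against 13.06 and 13.04 after scrambled shRNA. That is a 1.34-fold rise (95% confidence interval 1.22 to 1.49, adjusted p = 0.0237, limma). Erap1, the aminopeptidase that trims peptides in the endoplasmic reticulum, measured 10.51 and 10.26 after Gld2 shRNA, against 10.12 in both cultures with scrambled shRNA. The Gld2 shRNA cultures differed from each other by about as much as the group difference of 0.26, and Erap1 did not pass (adjusted p = 0.163, limma).

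RT1-S3 had the largest difference of the 43 members. It encodes the rat counterpart of mouse H2-T23, which makes Qa-1, a class I protein known in mouse for showing leader peptides of other class I chains to the CD94/NKG2A receptor of natural killer cells. Values were 10.54 and 10.56 after Gld2 shRNA, against 8.39 and 8.43 after scrambled shRNA. Means were 10.55 ± 0.0165 after Gld2 shRNA and 8.41 ± 0.0247 after scrambled shRNA (SD, n = 2 each). RT1-S3 was 4.40-fold higher (95% confidence interval 3.98 to 4.87, adjusted p = 3.24e-05, limma). RT1-S2, whose stretch shown above holds the same motif letters, stood at 7.96 and 8.26 after Gld2 shRNA, against 7.62 and 7.78 after scrambled shRNA. RT1-S2 did not pass (log2 difference 0.41, adjusted p = 0.106, limma), and the 95% interval of 0.13 to 0.69 lies wholly below that of RT1-S3, 1.99 to 2.29. RT1-S2 was past the threshold under 4 of the 15 alternatives that could be run for it.

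Genes of the same stretch, named T, S, N and O, differed among themselves. Of 8 measured, 4 rose, 0 fell and 4 did not pass, beside 1.69% of all genes called higher, and the median was 0.45. RT1-N3, a nonclassical class I gene, stood at 9.49 and 9.37 after Gld2 shRNA, against 8.32 and 8.25 after scrambled shRNA, 2.20-fold higher (adjusted p = 0.00101, limma). RT1-N2 stood at 8.49 and 8.70 after Gld2 shRNA, against 7.85 and 7.87 after scrambled shRNA, 1.67-fold higher (adjusted p = 0.0118, limma). Both groups were well apart for each N gene, but the probe sets of RT1-N2 and RT1-N3 are annotated with a common sequence record, so they are not independent readings. RT1-T24-1 rose (0.50), while RT1-T24-4 (0.25), RT1-T18 (0.22) and RT1-O1 (0.14) did not pass.

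Most measured genes of the CE block, which holds nonclassical class I genes, rose. Of 10 genes measured, 7 rose, 0 fell and 3 did not pass, beside 1.69% of all genes called higher. The median was 0.56, and all 10 had both Gld2 shRNA cultures above both scrambled shRNA cultures, beside 24.0% of all genes. RT1-CE13 stood at 10.11 and 10.39 after Gld2 shRNA, against 9.25 and 9.10 after scrambled shRNA, 2.10-fold higher (adjusted p = 0.00803, limma). RT1-CE10 stood at 9.37 and 9.33 after Gld2 shRNA, against 8.23 and 8.40 after scrambled shRNA, 2.05-fold higher (adjusted p = 0.00217, limma). In both genes the gap between the groups was several times the SD within either.

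RT1-CE7 stood at 10.30 and 10.12 after Gld2 shRNA, against 9.50 and 9.35 after scrambled shRNA (1.72-fold, adjusted p = 0.0119, limma). RT1-CE4 stood at 9.83 and 9.99 after Gld2 shRNA, against 9.01 and 9.29 after scrambled shRNA (1.70-fold, adjusted p = 0.0263, limma). The scrambled shRNA cultures of RT1-CE4 differed by 0.197 in SD, the widest control spread among the class I genes that rose. RT1-CE2 stood at 8.64 and 8.69 after Gld2 shRNA, against 8.13 and 8.15 after scrambled shRNA (1.44-fold, adjusted p = 0.0124, limma). RT1-CE15 stood at 9.99 and 10.02 after Gld2 shRNA, against 9.54 and 9.68 after scrambled shRNA (1.32-fold, adjusted p = 0.0456, limma), close to the threshold. RT1-CE16 also rose (0.60), whereas RT1-CE11 (0.43), RT1-CE5 (0.23) and RT1-CE3 (0.20) did not pass.

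The M family was the class I family with no call. Its median level was 7.61 and 7.67 after Gld2 shRNA, against 7.58 and 7.65 after scrambled shRNA. That of the CE genes was 9.38 and 9.37 after Gld2 shRNA, against 8.76 and 8.91 after scrambled shRNA. Whether the low M genes lie above background is not known. In mouse, genes of the M1 and M10 families are known from sensory neurons of the vomeronasal organ, and H2-M3, the counterpart of RT1-M3-1, shows peptides that begin with formyl-methionine. Of 8 M genes, 0 rose and 0 fell by limma, and the median was 0.09. The 2 at an unadjusted p under 0.05, beside 3687 of all 14497 genes, were RT1-M2 (0.35) and RT1-M5 (0.32). RT1-M3-1 stood at 9.46 and 9.17 after Gld2 shRNA, against 8.85 and 9.16 after scrambled shRNA, with groups that nearly touched (log2 difference 0.31, adjusted p = 0.227, limma). The other 5, RT1-M6-1, RT1-M6-2, RT1-M1-2, RT1-M1-4 and RT1-M10-1, had differences from -0.10 to 0.11. Whether the M family differs from the CE block was not tested, since the families were chosen with the values known.

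**Figure D2:**
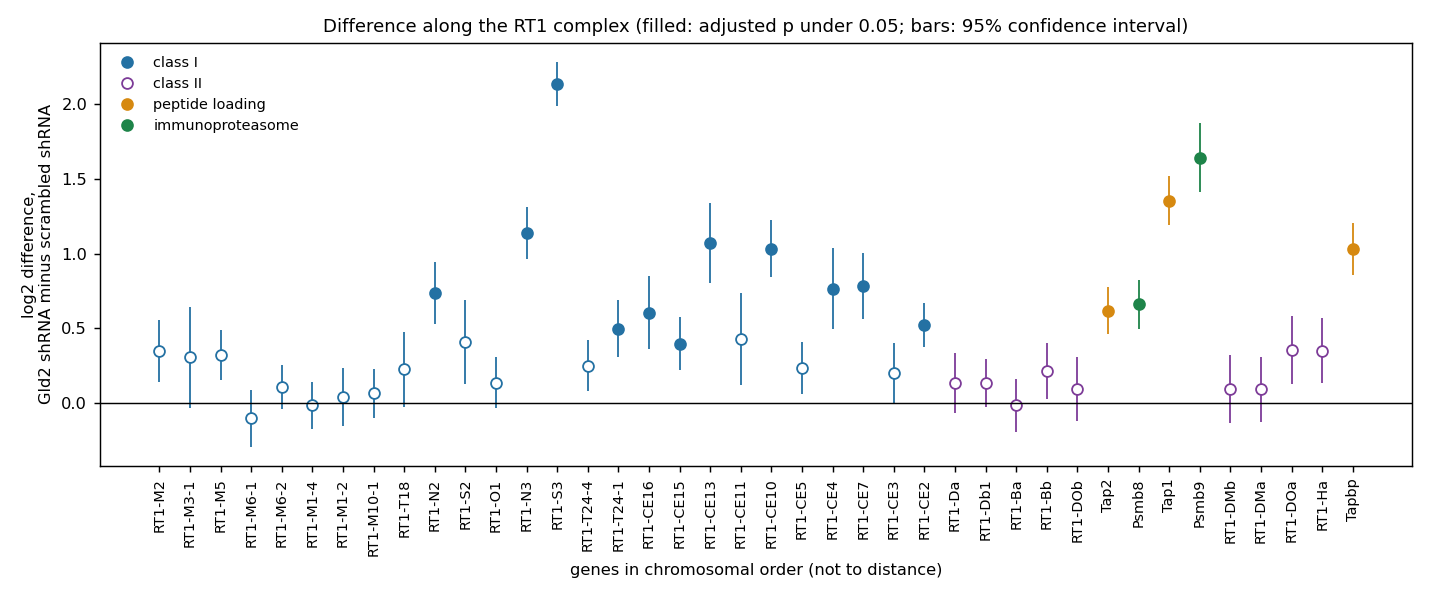
Log2 difference (y axis, Gld2 shRNA minus scrambled shRNA) with its 95% confidence interval for 38 members and 2 immunoproteasome genes in their order along chromosome 20, evenly spaced. Filled points are past the threshold. The M genes at the left and the class II genes are open, and Tap2, Psmb8, Tap1 and Psmb9 form a filled block between the class II genes RT1-DOb and RT1-DMb.

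Class II genes were measured one by one in the same fit. RT1-Da and RT1-Db1 encode the alpha and beta chains that correspond to human HLA-DR. RT1-Da stood at 7.27 and 7.41 after Gld2 shRNA, against 7.14 and 7.28 after scrambled shRNA, and RT1-Db1 at 7.33 and 7.36 after Gld2 shRNA, against 7.16 and 7.25 after scrambled shRNA. Their log2 differences were 0.14 and 0.13, and neither passed. RT1-Ba and RT1-Bb, which correspond to HLA-DQ, gave -0.02 and 0.21. RT1-Bb stood at 7.82 and 7.96 after Gld2 shRNA, against 7.72 and 7.63 after scrambled shRNA (adjusted p = 0.159, limma), so its groups were apart, but by less than the gap between the Gld2 shRNA cultures.

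The nearest to the threshold were RT1-Ha and RT1-DOa. RT1-DOa, a chain of the DO protein that restrains peptide exchange, stood at 7.90 and 8.14 after Gld2 shRNA, against 7.70 and 7.64 after scrambled shRNA (log2 difference 0.35, adjusted p = 0.0932, limma). RT1-Ha, which corresponds to an alpha chain of HLA-DP, stood at 7.61 and 7.84 after Gld2 shRNA, against 7.40 and 7.35 after scrambled shRNA (0.35, adjusted p = 0.0890, limma). Gld2 shRNA replicate 2 was the higher culture in both. RT1-DOb, the partner of RT1-DOa, had 8.15 and 8.37 after Gld2 shRNA, against 8.21 and 8.13 after scrambled shRNA, with overlapping groups (0.09).

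The peptide exchange genes RT1-DMa and RT1-DMb each differed by 0.09. RT1-DMa stood at 12.02 and 12.03 after Gld2 shRNA, against 11.82 and 12.05 after scrambled shRNA. RT1-DMb stood at 7.23 and 7.47 after Gld2 shRNA, against 7.21 and 7.29 after scrambled shRNA. Both pairs of groups overlapped. Over the 9 class II genes, the 95% intervals reached from -0.19 to 0.58 on the log2 scale, so a rise of up to 1.49-fold is within the interval of RT1-DOa and up to 1.24-fold within that of RT1-DMa.

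The class II partners were likewise not called. Cd74 stood at 7.75 and 7.83 after Gld2 shRNA, against 7.48 and 7.64 after scrambled shRNA (log2 difference 0.23, 95% confidence interval 0.04 to 0.42, adjusted p = 0.146, limma). Ciita, the class II transactivator, stood at 7.62 and 7.89 after Gld2 shRNA, against 7.56 and 7.63 after scrambled shRNA (0.16, adjusted p = 0.372, limma). The groups were apart for Cd74 and overlapped for Ciita.

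Set side by side, the class I median lay above the class II median in each Gld2 shRNA culture, which is a description. Against the mean of the scrambled shRNA cultures, the class I median was 0.32 in Gld2 shRNA replicate 1 and 0.41 in replicate 2, and the class II median was 0.09 and 0.21. The median of class I minus that of class II was 0.24 on the log2 scale. It is given as a description with no p, because the lists were chosen with the values known. Differences also varied with level over the whole array, chiefly in Gld2 shRNA replicate 2. Of the 9 class II genes, 8 lay in deciles 2 to 4 of mean level, where the medians over all genes were 0.05 to 0.10, or 0.11 to 0.17 in Gld2 shRNA replicate 2. Of the 26 class I genes, 13 lay in those deciles too, and the other 13 in deciles 5 to 7, where the medians over all genes were -0.10 to -0.06. The part of this drift in the class II values was not tested.

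Near-identical genes limit how far single class I values can be told apart. Of 41 probe sets that name an RT1 gene, 10 share a sequence record with another, in 7 pairs. Some of these pairs are probe sets of the same gene, as for RT1-T24-4 and RT1-CE7. Only RT1-N2 and RT1-N3 share a record without a symbol in common. In the RefSeq table of GRCr8, 10 members overlap another RT1 gene. The probe set for RT1-A1, RT1-A2 and RT1-A3, the classical class I genes, stood at 10.26 and 10.19 after Gld2 shRNA, against 9.41 and 9.39 after scrambled shRNA. It was 1.77-fold higher (adjusted p = 0.0127, limma over all 28826 probe sets), but cannot be split between the 3 genes.

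The other 3 probe sets with several RT1 names were higher too. The set for RT1-CE1 and RT1-CE12 differed by 0.80 (adjusted p = 0.0250, limma over all probe sets) and the set for RT1-CE7, RT1-CE1 and RT1-CE12 by 0.87 (adjusted p = 0.00939, same fit). The set for RT1-CE13 and RT1-CE14 differed by 0.59 and did not pass in that fit (adjusted p = 0.0524, limma). A second probe set of RT1-CE7 differed by 0.68 (adjusted p = 0.0549, limma over all probe sets), beside 0.78 for the one used, and a second one of RT1-T24-4 by 0.35, beside 0.25. When each of these probe sets was counted once for every symbol it names, which adds 6 symbols to the 26 class I genes, 17 class I symbols were past the threshold, beside 1.78% of all genes called higher in that fit. These 17 are not separate readings, since the set for RT1-A1, RT1-A2 and RT1-A3 is counted 3 times. Promoters of some members were alike too, when aligned end to end with gaps allowed, from 250 bases before to 50 after the start. RT1-M6-1 and RT1-M6-2 shared 96.7% of bases, RT1-CE10 and RT1-CE4 83.0%, and RT1-S2 and RT1-S3 68.3%. Probe sequences were not among the sources used here, so cross-signal between the genes was not tested.

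The proteasome supplies the peptides for transport. All 5 genes of the interferon-inducible proteasome and its activator rose, beside 1.69% of all genes called higher, and the median was 0.66. Psmb9, a catalytic subunit, stood at 11.23 and 11.14 after Gld2 shRNA, against 9.42 and 9.66 after scrambled shRNA (3.12-fold, adjusted p = 0.000681, limma). Psmb8, Psmb10, Psme1 and Psme2 rose by 0.66, 0.60, 0.48 and 0.70 on the log2 scale. Psmb8 and Psmb9 lie beside Tap1 and Tap2 within the class II stretch of chromosome 20, and these 4 rose while the class II genes on either side did not pass.

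General chaperones of the endoplasmic reticulum, which fold many proteins besides class I, did not pass. Of 8 measured, 0 rose and 0 fell by limma, with 0 at an unadjusted p under 0.05 and a median of -0.02. The smallest p-values were those of Uggt1, a folding sensor (-0.15), and Hspa5, the chaperone BiP (-0.10). Of 6 other peptidases, Lnpep, an endosomal relative of Erap1, fell (-0.34, adjusted p = 0.0485, limma), 0 rose and 5 did not pass. Of 7 endolysosomal genes, Ctss, which cuts the invariant chain, rose (0.37, adjusted p = 0.0460, limma), 0 fell and 6 did not pass.

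Transcription factors of MHC genes were measured in the same fit. Of 5 measured interferon factors that act on MHC promoters, 4 rose, beside 1.69% of all genes called higher. Stat2 rose by 1.43, Irf9 by 1.40, Irf1 by 1.30 and Irf2 by 0.34, and Irf8 (0.07) did not pass. Of 7 constitutive factors of the MHC promoter, 0 rose and 0 fell by limma, and 1 had an unadjusted p under 0.05 (Creb1, -0.34). All 7 differences were below 0, beside 7798 of all 14497 genes. Nfyb, a subunit of the CCAAT-binding factor, had the next smallest p (-0.11). MHC-like genes outside the RT1 names, such as Cd1d1 (0.36) and Mr1 (-0.12), gave 0 calls among 6, with 1 at an unadjusted p under 0.05. Receptors that bind MHC proteins gave 0 calls among 8, the nearest being Klrk1 (0.36, adjusted p = 0.0515, limma). Of these 8, 3 had an unadjusted p under 0.05, beside 3687 of all 14497 genes.

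**Figure D3:**
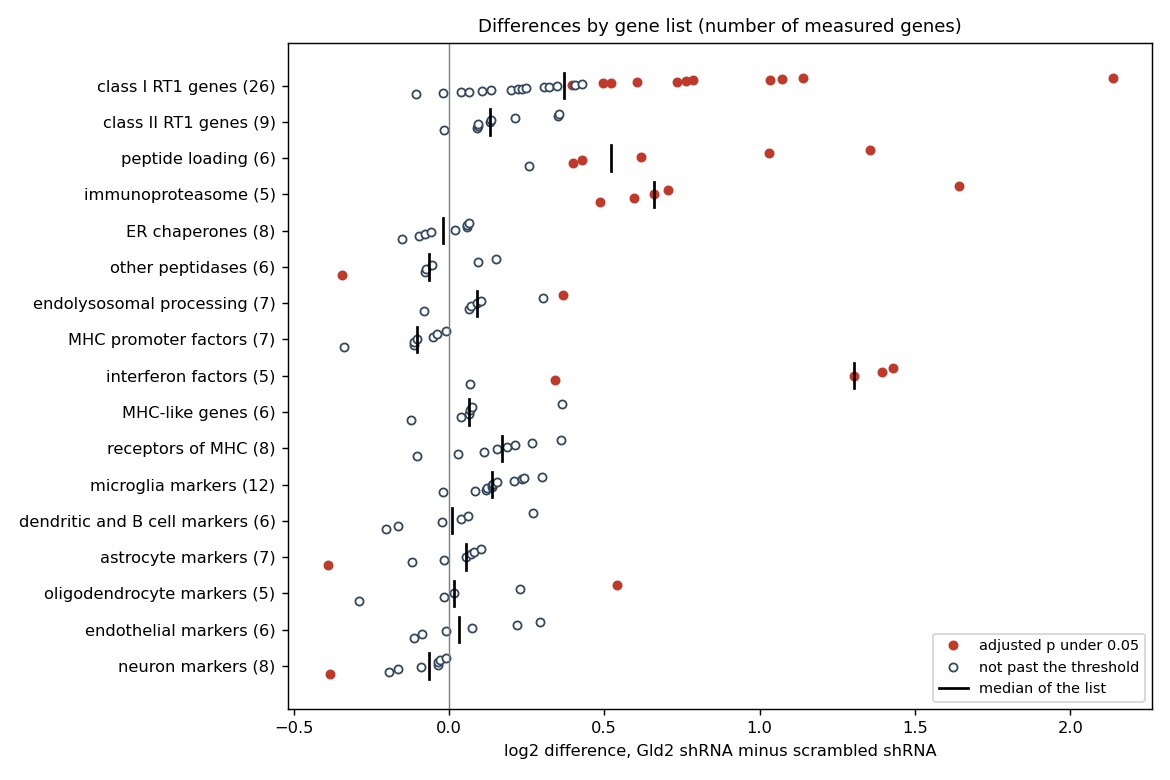
Log2 difference (x axis, Gld2 shRNA minus scrambled shRNA) of each measured gene in 17 lists, with red points past the threshold, open points not past it and a bar at the list's median. Class I, peptide loading, immunoproteasome and interferon factor genes reach the right, while the ER chaperones lie between -0.15 and 0.06 and the neuron markers between -0.38 and -0.01.

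Promoter letters were searched in the 37 members with a RefSeq promoter, from 250 bases before the start to 50 after it, on both strands. The interferon-stimulated core was found in 6 of 15 members that rose and in 1 of 22 that did not pass, beside 3.92% of all 33469 promoters of the table. The member that did not pass was RT1-S2, whose call turned under some alternatives. All 6 that rose lost their call without moderation across genes, and Tap2 and B2m lost theirs under other alternatives too. Within class I, the core was in 2 of 10 genes that rose and in 1 of 13 that did not pass. It was in 4 of 6 genes outside RT1 (Tap1, Tap2, Tapbp and B2m), in 3 of 23 class I genes (RT1-S3, RT1-S2 and RT1-N3) and in 0 of 8 class II genes. The gamma-activated site, TTC, any 3 bases and GAA, was in 1 of 37 (RT1-M3-1), beside 8.87% of all promoters, and CCAAT was in 8 of 8 class II genes and 15 of 23 class I genes, beside 37.5% of all promoters. A stretch may match more than 1 of these motifs, and the annotated start may not be the one used in neurons. A match is a description of letters, not of binding.

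Markers of cells that normally carry class II were examined beside these results. Of 12 microglia and macrophage markers, 0 rose and 0 fell by limma, and the median was 0.14. Of these 12, 3 had an unadjusted p under 0.05 and 11 were above 0, beside 3687 and 6699 of all 14497 genes. The mean log2 level of the list was 7.65 and 7.77 after Gld2 shRNA, against 7.55 and 7.56 after scrambled shRNA, and no value of its 12 genes was above 8.79. Dendritic and B cell markers gave 0 calls among 6 by limma, with 2 at an unadjusted p under 0.05 and a median of 0.01. Among astrocyte markers Gja1 fell (-0.39) and 6 did not pass, among oligodendrocyte markers Cnp rose (0.54) and 4 did not pass, and endothelial markers gave 0 calls among 6, with 2 at an unadjusted p under 0.05. Among neuron markers Dcx fell (-0.38), 7 did not pass, and all 8 were below 0, beside 7798 of all 14497 genes. The part of the marker differences in the MHC values was not tested, nor was the part of the drift with level in the marker differences.

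Leaving out 1 culture changed the number of calls over the whole array. Without scrambled shRNA replicate 1, 3 class I genes and 2 other members were past the threshold, and likewise without scrambled shRNA replicate 2, beside 0.566% and 0.586% of all genes called higher in those fits. The log2 differences of members that lost their call there stayed above 0. Some stayed close to those with all cultures, such as 0.61 and 0.63 for Tap2, beside 0.62, and 0.52 and 0.53 for RT1-CE2, beside 0.52. Others moved more, such as 0.63 and 0.90 for RT1-CE4, beside 0.76, and 0.51 and 0.70 for RT1-CE16, beside 0.60. RT1-S3, RT1-N3, RT1-CE10, Tap1 and Tapbp were past it in every fit without 1 culture. Without Gld2 shRNA replicate 2, 9 class I genes and 3 other members were past it, beside 1.19% of all genes called higher, and without Gld2 shRNA replicate 1, 16 class I genes, 2 class II genes (RT1-DOa and RT1-Ha) and 6 other members, Ciita among them, beside 8.85% of all genes called higher in that fit.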

How the data were processed

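Arrays of 4 cultures were analysed. The authors deposited log2 values, for which the submitters' processing notes name RMA and affy. No source used here gives versions, settings or the probe set definition, and the log2 scale was read from the values. Of 28826 probe sets, 15209 had 1 gene symbol in the platform annotation, 306 several and 13311 none. The probe set with the highest mean over the arrays stood for a gene, which gave 14497 genes, with no filter on level. The groups were compared by a two-sided test (lmFit and eBayes, limma 3.58.1, R 4.3.3) with 2 residual and 3.96 prior degrees of freedom, and the test was tried on simulated data. Precision is limited by having 4 arrays.

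The members, lists and motifs were chosen with earlier results of these data known, so lists are described by counts and medians without a test. Named genes were Tent2, the members outside RT1, the 8 of each class with the smallest p and the 2 with the highest mean, other RT1 members by their difference, and, of each list, those past the threshold or else the 2 with the smallest p. Gfap, and the values of every culture for RT1-S2 and RT1-M3-1, were added after their values were seen. So were the median levels of the astrocyte and neuron markers and of the M and CE genes. Class II was every RT1 gene whose locus name begins with B, D or H, and all other RT1 genes counted as class I. Promoters came from the RefSeq table of GRCr8. Protein sequences were not used here. Some genes of the lists are not reported here, and counts are over the genes measured. Alternatives were other normalizations, probe set rules, level filters, variance models, a block and leaving out each culture.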

Additional observations from a re-analysis of the deposited data

How the results depend on the processing

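No called difference of the 43 members reversed, and 0 members fell, under 16 alternatives, of which 1 was chosen after seeing the data. Class I genes past the threshold numbered 11, and 17 with probe sets of several symbols counted (which adds 6 symbols). They numbered 7 with all probe sets tested together and 0 without moderation across genes. Without genes under the median level, 5 class I genes were past it. Of the 12 members of all kinds left there, 0 lost their call. Class II genes numbered 0, and 2 with limma's trended prior variance, 1 without genes under the 25th percentile, 2 with arrays centred on their median, and 0 to 2 without 1 culture. Other members numbered 5, and 3 with all probe sets, 0 without moderation, 3 by unadjusted p with at least 1.5-fold, and 2 to 6 without 1 culture. Without moderation Tent2, at -1.28, also lost its call (adjusted p = 0.220, limma's linear model). The class I median was 0.37, and 0.46 without genes under the 25th percentile, 0.78 without those under the median, 0.44 with arrays centred over the genes tested (the added alternative), 0.46 with several symbols counted, and 0.30 to 0.47 without 1 culture. Class I minus class II was 0.24, and 0.69 without genes under the median, where RT1-DMa was the only class II gene left. It was 0.33 with several symbols counted, and 0.20 to 0.29 without 1 culture. Genes past the threshold numbered 594, and 2232 with limma's trended prior variance, 1297 and 1596 without genes under the 25th percentile and the median, 1925 and 312 with arrays centred on their median over all probe sets or over the genes tested, 313 with all probe sets, 1 without moderation, 211 by unadjusted p with at least 1.5-fold, and 85 to 2689 without 1 culture. The fits without a culture assume that the lone culture varies like the other group. The cause of these shifts was not tested, beyond the fewer genes and cultures that the filters and fits hold. The final digits of the titles are shared between groups, and deviations from the group mean correlated at 0.14 between cultures of the same digit, across genes. With this replicate block 12 class I genes, 0 class II genes and 5 other members were past the threshold, and RT1-CE16 lost its call (adjusted p = 0.0501, limma) while RT1-CE11 and RT1-S2 (adjusted p = 0.0466, limma) gained one. No detection calls were given, so signal over background limits the low genes.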
